A study of Homo sapiens with 26 samples.

Results

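The loss of POU2F2 was set directly against the loss of POU2AF1 in SUDHL4 (SU-DHL-4), an established human line of germinal centre B cell lymphoma. The comparison used the 2 libraries of cells with guides against POU2F2 and the 2 files of cells with guides against POU2AF1, which makes 4 of the 26 files of the series. The POU2AF1 knockdown files differed by about counting noise and were counted as 1 library, as were the 2 files of the SUDHL4 control with non-targeting guides. Every SUDHL4 group, control included, carried a catalytically dead Cas9 fused to BFP and the KRAB repressor and received its guides by lentivirus, in RPMI-1640 with 10% fetal bovine serum. The control stood outside the contrast and is given to show where each level lay without a targeted gene. A single library per group outside the POU2F2 knockdown means that no spread was measured for the POU2AF1 knockdown, and what sets the 2 POU2F2 knockdown libraries apart, such as guide or culture, is not given in the sources used here. The p-values therefore rest on the spread between the POU2F2 knockdown libraries, which may be technical. With 1 residual degree of freedom, that spread was pooled mostly over all genes. A small p-value is thus not replicate evidence for a single gene.

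POU2F2 encodes OCT2, a POU-domain transcription factor of B cells that binds the octamer sequence in immunoglobulin and other B cell promoters. POU2AF1 encodes OCA-B (also OBF1 or BOB1), a coactivator that does not find DNA by itself but docks on OCT1 or OCT2 at the octamer. Both are needed for germinal centre responses in mice. The direct contrast shows which transcripts differ when the DNA-binding factor is lost in place of its coactivator. OCT1, the product of POU2F1, is the other octamer factor of B cells and can also recruit OCA-B.

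The octamer that both proteins share is ATGCAAAT, read on either strand. To show it in place, the 250 bases upstream of a RefSeq start (GRCh38.p14) are given for 4 genes that held it and differed between the knockdowns. SERPINA9 and PIM2 were higher in the POU2F2 knockdown, and CD53 and HDAC9 were lower. The 4 are chosen examples and not a ranking. None was called in a fit of all libraries of the series (edgeR adjusted p = 0.1 for CD53, 0.16 for HDAC9, 0.48 for SERPINA9 and 0.78 for PIM2). Capitals mark the octamer or its reverse complement, and each sequence is written 5′ to 3′ along the gene's strand. For HDAC9 1 of the 5 starts in the table is shown, and for CD53 1 of the 2.

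SERPINA9 (chr14:94476198-94476447, minus strand): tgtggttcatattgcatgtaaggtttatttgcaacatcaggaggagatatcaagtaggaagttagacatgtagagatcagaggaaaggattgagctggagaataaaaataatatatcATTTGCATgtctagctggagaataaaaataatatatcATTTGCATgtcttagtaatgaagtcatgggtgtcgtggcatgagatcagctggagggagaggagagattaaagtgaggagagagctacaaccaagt
PIM2 (chrX:48919025-48919274, minus strand): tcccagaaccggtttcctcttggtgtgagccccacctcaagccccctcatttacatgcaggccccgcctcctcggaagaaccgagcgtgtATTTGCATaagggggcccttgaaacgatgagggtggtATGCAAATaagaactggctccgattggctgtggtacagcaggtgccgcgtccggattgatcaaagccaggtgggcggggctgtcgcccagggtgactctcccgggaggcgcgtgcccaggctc
CD53 (chr1:110870960-110871209, plus strand): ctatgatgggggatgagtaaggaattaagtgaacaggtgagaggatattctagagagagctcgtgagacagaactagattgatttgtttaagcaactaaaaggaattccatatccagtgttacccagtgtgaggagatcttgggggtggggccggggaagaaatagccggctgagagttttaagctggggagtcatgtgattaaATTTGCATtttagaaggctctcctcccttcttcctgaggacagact
HDAC9 (chr7:18495499-18495748, plus strand): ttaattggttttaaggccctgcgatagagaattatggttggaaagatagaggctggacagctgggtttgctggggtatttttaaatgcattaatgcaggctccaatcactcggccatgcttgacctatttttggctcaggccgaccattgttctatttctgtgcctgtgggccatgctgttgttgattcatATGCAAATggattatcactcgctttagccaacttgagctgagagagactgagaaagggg

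SERPINA9, a serpin of germinal centre B cells, held 2 octamers and was at 70.3 and 69.8 CPM (read counts scaled by normalised library size) in the POU2F2 knockdown, 19 CPM in the POU2AF1 knockdown and 86.1 CPM in the control. PIM2, a survival kinase, also held 2 octamers, and was at 29 and 33.4 CPM in the POU2F2 knockdown, 18.4 CPM in the POU2AF1 knockdown and 38.1 CPM in the control. For both genes the POU2AF1 knockdown was the lowest of the 4 libraries and the control the highest. CD53, a tetraspanin of leukocytes, was at 128 and 111 CPM in the POU2F2 knockdown, 238 CPM in the POU2AF1 knockdown and 45.9 CPM in the control. HDAC9, a class II histone deacetylase, was at 11.4 and 9.36 CPM in the POU2F2 knockdown, 20.3 CPM in the POU2AF1 knockdown and 5 CPM in the control. Here the order was turned round, with the POU2AF1 knockdown highest and the control lowest. A gene was counted once if the octamer stood in such a stretch at any of its starts. This held for 47 of 1809 genes called higher (2.6%) and 34 of 1506 called lower (2.26%). It held for 219 of 10996 of all genes tested (1.99%) and 554 of 27305 in the whole table (2.03%). A match of these letters is a description and not a binding site.

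The targeted genes checked the labels. POU2F2 (ENSG00000028277, GRCh38 chromosome 19, 42086110 to 42196585, minus strand) was at 40.6 and 52.1 CPM in the POU2F2 knockdown, 461 CPM in the POU2AF1 knockdown and 303 CPM in the control. Its fitted log2 fold change, POU2F2 knockdown over POU2AF1 knockdown, was -3.31 ± 0.13 (edgeR quasi-likelihood adjusted p = 7.5e-09). Here and below ± gives an approximate standard error, worked back from the fold change and the F statistic of the test. It rests on the same pooled spread as the p-values. POU2AF1 (ENSG00000110777, chromosome 11, 111352252 to 111455630, minus strand) was at 502 and 473 CPM in the POU2F2 knockdown, 74.1 CPM in the POU2AF1 knockdown and 406 CPM in the control, a log2 fold change of 2.72 ± 0.12 (edgeR adjusted p = 4.4e-18). Each gene was thus lowest in the libraries labelled with its knockdown and at or above the control level in the other knockdown. POU2F1 was at 78.9 and 85.9 CPM in the POU2F2 knockdown, 51.3 CPM in the POU2AF1 knockdown and 97.7 CPM in the control (log2 fold change 0.68 ± 0.09, edgeR adjusted p = 8.5e-07). The related genes POU2AF2 and POU2AF3 had no reads in these 4 libraries, and POU2F3 had at most 0.0191 CPM. POU2F2 lost its call in the fit of all libraries of the series without POU2F2 knockdown replicate 1 (-3.17, edgeR adjusted p = 0.073).

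The POU2F2 knockdown files held 50857933 and 44622979 estimated reads, the merged POU2AF1 knockdown 60154198 and the merged control 51030494. Mitochondrially encoded genes took 14.04% (95% Wilson interval 14.03 to 14.05) and 10.26% (10.25 to 10.27) of reads in the POU2F2 knockdown, 12.77% (12.76 to 12.78) in the POU2AF1 knockdown and 9.76% (9.75 to 9.77) in the control. These intervals cover counting error only, and the POU2AF1 knockdown lay between the 2 POU2F2 knockdown libraries. The libraries had the B cell markers of the line: MS4A1, which encodes CD20, was at 1680 and 1466 CPM in the POU2F2 knockdown, 2463 CPM in the POU2AF1 knockdown and 802 CPM in the control. The germinal centre repressor BCL6 was at 377 and 413 CPM in the POU2F2 knockdown, 223 CPM in the POU2AF1 knockdown and 645 CPM in the control. Of 24 T and NK cell markers, 13 passed the filter on low counts. Of these, 2 were called higher and 3 lower, against 13.8% and 12.4% of all genes. The sum over the 24 was 255 and 255 CPM in the POU2F2 knockdown, 301 CPM in the POU2AF1 knockdown and 235 CPM in the control. LCK and LEF1 made up most of that sum, while CD3D and GATA3 were at 0 in all 4 libraries. Other T cell genes had reads. TRAC, a T cell receptor constant gene, was at 13.9 and 11 CPM in the POU2F2 knockdown, 25.1 CPM in the POU2AF1 knockdown and 3.32 CPM in the control. TRAC (-1.01), LCK (-0.67) and CD3G (-2.13, at 0.186 CPM or less in the POU2F2 knockdown) were called lower, and CD247 (0.84) was called higher. CD3G passed the filter only through the POU2AF1 knockdown (0.704 CPM), so it could not have been called higher. Of 18 myeloid markers 6 passed the filter, with CD68 called lower and none higher. Their sum was 5.8 and 5.51 CPM in the POU2F2 knockdown, 9.88 CPM in the POU2AF1 knockdown and 3.24 CPM in the control, and S100A8, MPO and ELANE were at 0 in all 4. In bulk RNA, fewer cells in a state and less RNA per cell cannot be told apart.

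In this contrast S phase and G2 and M phase genes were higher in the POU2F2 knockdown, and most MHC class II, type I interferon response and cytoplasmic ribosomal protein genes were lower. Of 16973 genes tested, 4446 (26.2%) were called at an edgeR Benjamini-Hochberg adjusted p below 0.05, 2334 (13.8%) higher and 2112 (12.4%) lower in the POU2F2 knockdown. The median log2 fold change over all genes was 0.01. Large differences were more often lower, with 221 genes called and at least 2-fold higher (1.3%) against 606 called and at least 2-fold lower (3.57%). In all 4446 called genes both POU2F2 knockdown libraries lay on the same side of the POU2AF1 knockdown library. A call weighs the difference against a spread that comes from those 2 libraries and is pooled mostly over genes. A called difference is therefore large next to the usual gap between them. The shared side largely follows from this and is no separate support. The median gap between the 2 POU2F2 knockdown libraries was 0.11 on the log2(CPM + 0.5) scale, against 0.22 between their mean and the POU2AF1 knockdown library.

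The number of genes called differed between the fits. With all 22 libraries of the series in 1 fit, where the spread comes mainly from OCI-Ly7, 37 genes were called (0.196%), 7 higher (0.037%) and 30 lower (0.159%), and 34 of them were also called in the SUDHL4 fit. With the series mark of the labels as a block over all libraries, called the series block here, 1202 were called (6.35%), 566 higher (2.99%) and 636 lower (3.36%). Of these, 1174 (6.92% of the genes tested in SUDHL4) were called in the same direction in the SUDHL4 fit. On the SUDHL4 libraries DESeq2 called 2224 genes (13.1%), 1215 higher (7.16%) and 1009 lower (5.94%). Tested against a 1.5-fold change 471 were called (2.77%), 127 higher (0.748%) and 344 lower (2.03%). Leaving out POU2F2 knockdown replicate 1 or 2 left 5 and 8 genes in the fit of all libraries and 493 and 551 with the series block. Without OCI-Ly7 POU2AF1 knockdown replicate 1, whose mitochondrially encoded share of 25.82% was the highest of the series, the series block called 2648 genes.

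The control lay nearer to the POU2F2 knockdown for most called genes. This held for 2249 of the 2334 genes called higher (96.4%) and 2055 of the 2112 called lower (97.3%), against 78.7% of all genes tested. In other words, the library that stood apart was most often that of the POU2AF1 knockdown. Because 1 POU2AF1 knockdown library carries this, whether another culture would lie in the same place was not tested.

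Among genes called in both the SUDHL4 fit and the fit of all libraries, with a mean of at least 5 CPM over the contrast, the 12 with the lowest log2 fold changes included FCRL5, LRRK2, LTB and PTPN6. FCRL5, an Fc receptor-like protein of memory and atypical B cells, was at 5.39 and 4.55 CPM in the POU2F2 knockdown, 44.2 CPM in the POU2AF1 knockdown and 1.37 CPM in the control (log2 fold change -3.15 ± 0.13, edgeR adjusted p = 2.2e-18, or 0.03 with all libraries). LTB, the lymphotoxin beta chain, was at 78.3 and 92.5 CPM in the POU2F2 knockdown, 365 CPM in the POU2AF1 knockdown and 38.7 CPM in the control (-2.10 ± 0.10, edgeR adjusted p = 7e-15). PTPN6 encodes SHP-1, a phosphatase that dampens B cell receptor signals, and was at 25.3 and 21.7 CPM in the POU2F2 knockdown, 84.9 CPM in the POU2AF1 knockdown and 4.43 CPM in the control (-1.85 ± 0.10). In each of these genes the POU2F2 knockdown lay above the control and well below the POU2AF1 knockdown.

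CD72, an inhibitory coreceptor of B cells, was at 86.4 and 82.5 CPM in the POU2F2 knockdown, 266 CPM in the POU2AF1 knockdown and 45.2 CPM in the control (-1.65 ± 0.09). LRRK2, a large kinase of B and myeloid cells, was at 16.7 and 11.5 CPM in the POU2F2 knockdown, 64.6 CPM in the POU2AF1 knockdown and 3.09 CPM in the control (-2.19 ± 0.25, edgeR adjusted p = 0.013). PLEKHA2, an adaptor that binds phosphoinositides, was at 161 and 125 CPM in the POU2F2 knockdown, 425 CPM in the POU2AF1 knockdown and 49 CPM in the control (-1.57 ± 0.14). The LRRK2 and PLEKHA2 levels differed more between the POU2F2 knockdown libraries than those of CD72. The other genes named for this direction were TMPRSS15 (-2.59), the lectin CLEC17A (-1.82), the sialyltransferase ST3GAL1 (-1.81), the chondroitin sulfotransferase CHST11 (-1.75), the cation channel TRPV1 (-1.70) and PLEKHO1 (-1.49), all with log2 fold changes from the SUDHL4 fit. All 12 genes named as lower were called in both the SUDHL4 fit and the fit of all libraries, and the control was the lowest of the 4 libraries in all 12. In the fit of all libraries without POU2F2 knockdown replicate 1 or 2, CHST11 alone of these 12 kept its call both times (edgeR adjusted p = 0.033 and 0.023), and LRRK2 kept it without replicate 1 (0.041).

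Upwards, 6 of the 12 named genes were called in both fits. LOXL2, a lysyl oxidase that crosslinks collagen, was at 58.2 and 71.7 CPM in the POU2F2 knockdown, 16.6 CPM in the POU2AF1 knockdown and 80.1 CPM in the control (1.96 ± 0.13, edgeR adjusted p = 1e-07, or 0.014 with all libraries). DEPTOR, an inhibitor of mTOR kinase, was at 51 and 56.4 CPM in the POU2F2 knockdown, 20.5 CPM in the POU2AF1 knockdown and 79.8 CPM in the control (1.39 ± 0.10, edgeR adjusted p = 1.8e-12). DTL, a substrate receptor for replication-coupled protein destruction, was at 60 and 60.8 CPM in the POU2F2 knockdown, 31.3 CPM in the POU2AF1 knockdown and 70.9 CPM in the control (0.95 ± 0.10). In all 3 genes the POU2F2 knockdown lay below the control and the POU2AF1 knockdown lay lower still. TIAM1 (0.96), an exchange factor for RAC, DIAPH3 (0.82), an actin-nucleating formin, and CDC7 (0.81), a kinase that fires replication origins, completed the 6. None of these 6 kept its call in the fit of all libraries without POU2F2 knockdown replicate 1 or 2, where adjusted p-values ran from 0.059 for LOXL2 to 0.28 for CDC7.

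The other 6 genes named as higher were called in the SUDHL4 fit alone of these 2 fits. They were the smooth muscle myosin gene MYH11 (2.26), CCDC144A (2.20), the guanine nucleotide exchange factor gene ARHGEF28 (1.97), SERPINA9 (1.88), the noncoding RNA LINC02006 (1.80) and the G protein subunit GNB3 (1.78). GNB3 was at 15.9 and 19.3 CPM in the POU2F2 knockdown, 5.11 CPM in the POU2AF1 knockdown and 25.3 CPM in the control. Over the 12 named as higher the control was the highest library in 11, the exception being MYH11, at 5.84 and 7.81 CPM in the POU2F2 knockdown, 1.43 CPM in the POU2AF1 knockdown and 6.66 CPM in the control.

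**Figure D1:**
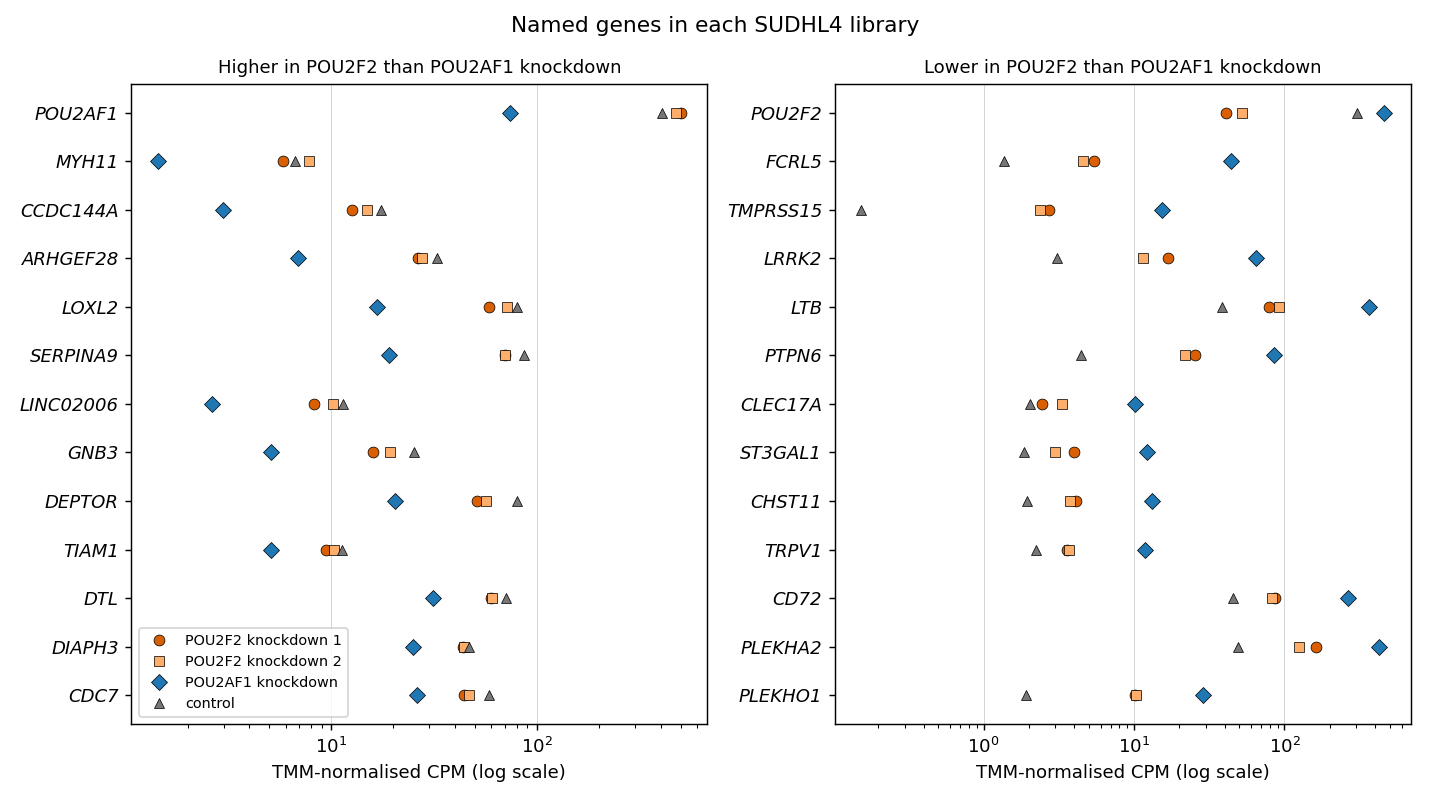
Levels of the named genes and both targeted genes in each SUDHL4 library, as TMM-normalised CPM on a log axis, with 1 symbol per library. Apart from the targeted genes, the POU2AF1 knockdown is the outermost symbol on the left in the left panel and on the right in the right panel, while the control lies on the far side of the POU2F2 knockdown libraries in all genes but MYH11.

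Cell division genes of the S, G2 and M phases all lay in 1 direction. All 30 S phase genes tested and all 30 G2 and M phase genes tested were called higher in the POU2F2 knockdown, against 13.8% of all genes, with median log2 fold changes of 0.62 and 0.64. The POU2AF1 knockdown was the lowest of the 4 libraries for every one of these 60 genes. Summed over the S phase list, the level was 5195 and 4942 CPM in the POU2F2 knockdown, 3303 CPM in the POU2AF1 knockdown and 5620 CPM in the control. Over the G2 and M phase list it was 4763 and 4768 CPM in the POU2F2 knockdown, 2891 CPM in the POU2AF1 knockdown and 5299 CPM in the control. The 2 POU2F2 knockdown libraries thus sat close together and close below the control.

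MKI67, the proliferation antigen Ki-67, was at 812 and 821 CPM in the POU2F2 knockdown, 416 CPM in the POU2AF1 knockdown and 883 CPM in the control (0.97 ± 0.12, edgeR adjusted p = 2.1e-07). CDK1, the kinase that starts mitosis, was at 147 and 163 CPM in the POU2F2 knockdown, 84.7 CPM in the POU2AF1 knockdown and 183 CPM in the control (0.88 ± 0.10). The replication helicase subunit gene MCM4 was at 628 and 565 CPM in the POU2F2 knockdown, 360 CPM in the POU2AF1 knockdown and 660 CPM in the control (0.73 ± 0.12). The smallest differences in the lists were those of MCM5 (0.29) and CDC25C (0.48). Of the G1 genes 8 of 19 were called higher, against 13.8% of all genes, and none lower. The higher ones included CDC25A (0.81), E2F1 (0.77), CDK6 (0.68) and CDK2 (0.45). With the series block 19 of the S phase and 26 of the G2 and M phase genes kept a call. Of the G1 genes 4 were called higher with the series block, and CDK6 was not (edgeR adjusted p = 0.37). No gene of these lists was called in the fit of all libraries. Without POU2F2 knockdown replicate 1 or 2 the series block called 11 and 18 S phase and 15 and 13 G2 and M phase genes.

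Growth and metabolic genes leaned the same way with smaller sizes, set against 13.8% called higher and 12.4% lower over all genes. MYC was at 364 and 336 CPM in the POU2F2 knockdown, 224 CPM in the POU2AF1 knockdown and 487 CPM in the control (0.65 ± 0.11, edgeR adjusted p = 2.2e-05). In the list of MYC targets and ribosome biogenesis factors, which includes MYC, 19 of 29 were called higher and none lower (median 0.35), with LDHA (0.62), UTP20 (0.59) and CAD (0.55) after MYC. Of the glycolysis and hypoxia genes 14 of 28 were called higher and 1 lower. Hexokinase HK2 was at 153 and 150 CPM in the POU2F2 knockdown, 92.3 CPM in the POU2AF1 knockdown and 154 CPM in the control (0.72 ± 0.10), and the 1 lower member was DDIT4, an inhibitor of mTORC1 signalling (-0.84). Sterol and fatty acid synthesis had 11 of 27 higher and none lower, led by the desaturase gene SCD (0.85) and the fatty acid synthase gene FASN (0.63). Of the ATF4 and amino acid response genes 13 of 26 were higher and 3 lower, with the cystine transporter gene SLC7A11 (1.20) and ASNS (0.67), which makes asparagine, at the top and DDIT3 (-0.75) at the bottom. With the series block 2, 3, 0 and 5 members of these 4 lists were called higher, in the order given.

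Cytoplasmic ribosomal protein genes went the other way from the ribosome biogenesis factors. Of 36 tested, 32 were called lower in the POU2F2 knockdown, against 12.4% of all genes, and none higher (median -0.51, range -0.69 to -0.32). Their sum was 48484 and 45244 CPM in the POU2F2 knockdown, 65823 CPM in the POU2AF1 knockdown and 43654 CPM in the control, and all 36 were highest in the POU2AF1 knockdown. RPS3A was at 1552 and 1406 CPM in the POU2F2 knockdown, 2247 CPM in the POU2AF1 knockdown and 1387 CPM in the control (-0.60 ± 0.14, edgeR adjusted p = 0.0014). These genes have processed pseudogenes of like sequence, so the split of reads between copies is uncertain. The series block called 7 of them and the fit of all libraries none, and without POU2F2 knockdown replicate 1 or 2 the series block called 1 and 0. Without OCI-Ly7 POU2AF1 knockdown replicate 1 the series block called 35. No call was made among 13 mitochondrially encoded genes (9.76% to 14.04% of reads above). Nuclear oxidative phosphorylation genes were split, 5 higher and 4 lower of 31, against 13.8% and 12.4% of all genes.

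Antigen presentation genes were lower in the POU2F2 knockdown. MHC class II genes display peptides to helper T cells, and 16 of 17 on the list were called lower and 1 higher (median -0.64), against 12.4% and 13.8% of all genes. The sum was 5982 and 5354 CPM in the POU2F2 knockdown, 9299 CPM in the POU2AF1 knockdown and 4046 CPM in the control. CIITA, the master coactivator of these genes, was at 108 and 101 CPM in the POU2F2 knockdown, 231 CPM in the POU2AF1 knockdown and 67.4 CPM in the control (-1.14 ± 0.09, edgeR adjusted p = 6.6e-12). The levels of the list lay in 1 order in most members, with the control lowest and the POU2AF1 knockdown highest.

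HLA-DQB1 was at 235 and 214 CPM in the POU2F2 knockdown, 508 CPM in the POU2AF1 knockdown and 119 CPM in the control (-1.18 ± 0.10). HLA-DMB, a chain of the peptide exchange factor HLA-DM, was at 149 and 145 CPM in the POU2F2 knockdown, 291 CPM in the POU2AF1 knockdown and 68.4 CPM in the control (-0.99 ± 0.09). The invariant chain gene CD74 was at 3345 and 2937 CPM in the POU2F2 knockdown, 5214 CPM in the POU2AF1 knockdown and 2312 CPM in the control (-0.73 ± 0.17). The exception was RFXAP, a subunit of the RFX promoter complex, called higher (0.60), while its partners RFX5 (-0.26) and RFXANK (-0.36) were called lower. HLA genes are near copies of each other, so the split of reads among them is uncertain. The series block called 8 lower, and 3 without POU2F2 knockdown replicate 1 or 2, and the fit of all libraries called 1. Of 16 MHC class I presentation genes 10 were called lower, against 12.4% of all genes, and none higher. The lower ones included HLA-B (-1.34), the class I coactivator gene NLRC5 (-1.22) and B2M (-0.57). HLA-E was at 105 and 108 CPM in the POU2F2 knockdown, 213 CPM in the POU2AF1 knockdown and 71.9 CPM in the control. The series block called 5 of them lower and the fit of all libraries none.

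Type I interferon response genes had the lowest median of all lists. Of 24 tested, most at low levels, 19 were called lower in the POU2F2 knockdown, against 12.4% of all genes, and none higher (median -1.42). Some members passed the filter on low counts only through the POU2AF1 knockdown library, and these could not have been called higher. OASL was such a gene, at 0.0619 and 0.0653 CPM in the POU2F2 knockdown, 0.581 CPM in the POU2AF1 knockdown and 0.0382 CPM in the control. The count and median include such members and are to that extent no support. Their sum was 209 and 214 CPM in the POU2F2 knockdown, 369 CPM in the POU2AF1 knockdown and 173 CPM in the control. IRF7, which amplifies interferon transcription, was at 5.84 and 6.4 CPM in the POU2F2 knockdown, 19 CPM in the POU2AF1 knockdown and 3.51 CPM in the control (-1.63 ± 0.16, edgeR adjusted p = 9.5e-10). IFI6 was at 2.66 and 2.37 CPM in the POU2F2 knockdown, 11 CPM in the POU2AF1 knockdown and 0.897 CPM in the control (-2.12 ± 0.22). Among the genes of the largest fitted change, XAF1 was at 0.351 and 0.152 CPM in the POU2F2 knockdown, 2.98 CPM in the POU2AF1 knockdown and 0.0763 CPM in the control (-3.54 ± 0.44). STAT2 (-0.56) and IRF9 (-1.08), the signal transducers of the pathway, were at higher levels and differed less. DESeq2 called 11 of the list lower, the series block 10 and the fit of all libraries 1. Without POU2F2 knockdown replicate 1 or 2 the series block called 4 and 3, and without OCI-Ly7 POU2AF1 knockdown replicate 1 it called 16.

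**Figure D2:**
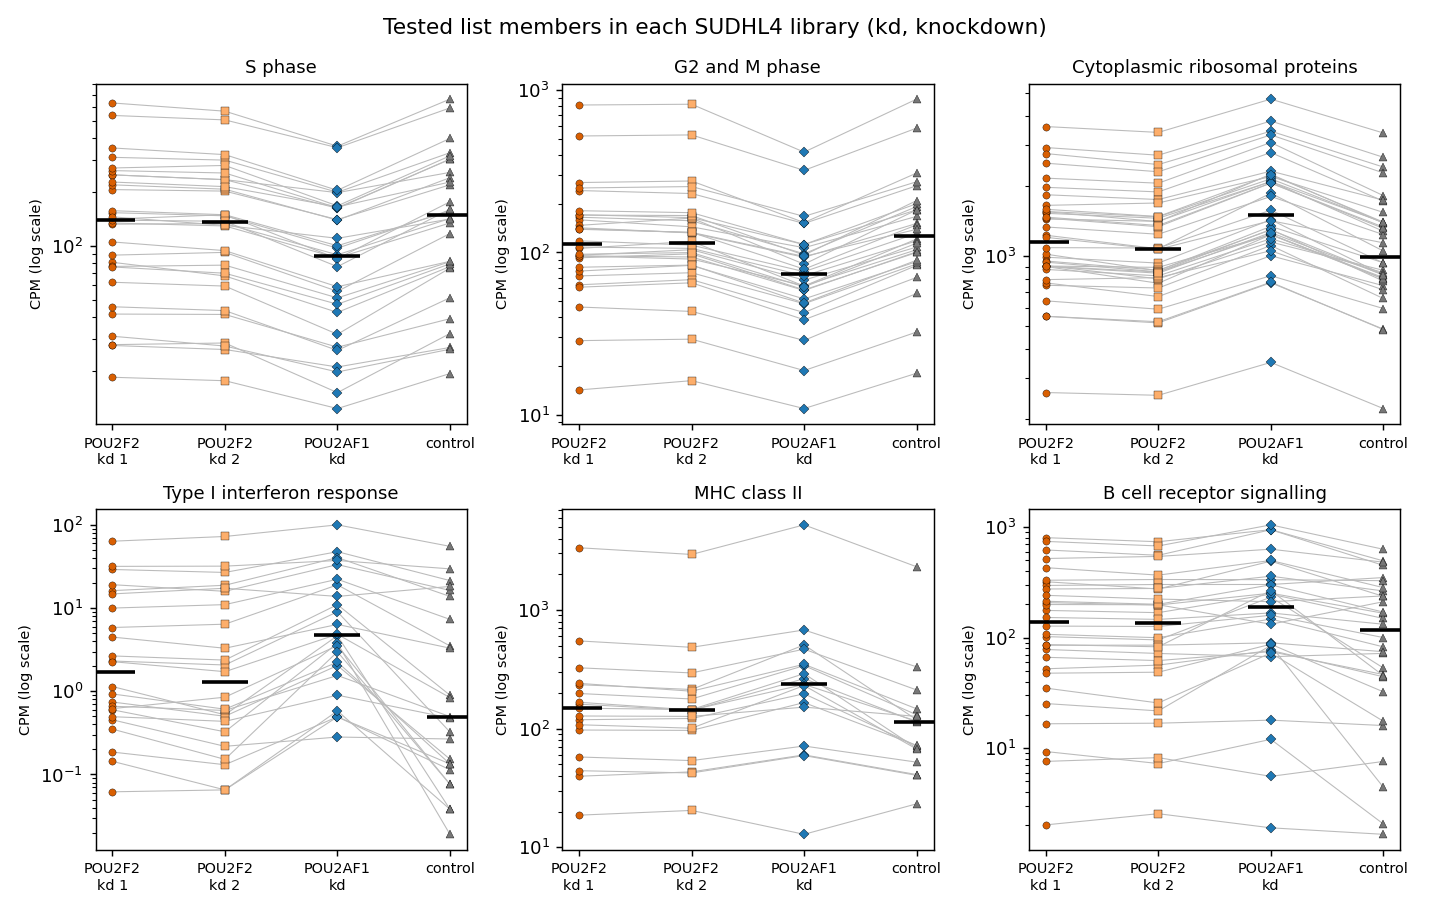
Levels of all tested members of 6 lists in each SUDHL4 library, as CPM on a log axis, with grey lines joining a gene across libraries and black bars at the median of a library. Values of 0 are not drawn. S phase and G2 and M phase members dip in the POU2AF1 knockdown, while ribosomal protein, interferon, MHC class II and most B cell receptor members peak there.

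Of 30 B cell receptor signalling genes 17 were called lower in the POU2F2 knockdown, against 12.4% of all genes, and 2 higher, against 13.8% (median -0.33). CD79B, a signalling chain of the receptor, was at 320 and 275 CPM in the POU2F2 knockdown, 491 CPM in the POU2AF1 knockdown and 236 CPM in the control (-0.72 ± 0.11, edgeR adjusted p = 3.2e-06). Its partner chain CD79A (-0.69), the kinase BTK (-0.52), the adaptor BLNK (-0.50) and the inhibitory receptor FCGR2B (-0.86) were also called lower. SH3BP5, which encodes a BTK-binding protein, was called higher (0.51). Activating and inhibitory members were thus both among the lower genes. The series block called 11 lower, and 5 without POU2F2 knockdown replicate 1 or 2, and the fit of all libraries called 3.

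Genes of naive and memory B cells, which germinal centre cells hold low, were lower in the POU2F2 knockdown in 12 of 23 cases and higher in 1 (median -0.77). Over all genes 12.4% were called lower and 13.8% higher. KLF2, a factor of resting and recirculating lymphocytes, was at 0.805 and 0.479 CPM in the POU2F2 knockdown, 6.83 CPM in the POU2AF1 knockdown and 0.439 CPM in the control (-3.40 ± 0.32, edgeR adjusted p = 9.9e-10). TXNIP, a brake on glucose uptake, was at 129 and 128 CPM in the POU2F2 knockdown, 371 CPM in the POU2AF1 knockdown and 61 CPM in the control (-1.53 ± 0.09). BTG2, an antiproliferative gene, was at 328 and 326 CPM in the POU2F2 knockdown, 694 CPM in the POU2AF1 knockdown and 243 CPM in the control (-1.08 ± 0.10). KLF2 in the POU2F2 knockdown stayed near its control level, while TXNIP and BTG2 lay between the control and the POU2AF1 knockdown. The migration receptors CCR6 (-3.28), S1PR1 (-2.87) and GPR183 (-1.45) were called lower at 0.557 CPM or less in the POU2F2 knockdown. The 1 higher member was IL4R, the interleukin 4 receptor chain (0.50). With the series block 8 of the list were called lower.

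Germinal centre identity genes were split, 11 higher and 8 lower of 32 (median 0.12), against 13.8% and 12.4% of all genes. Higher members included SERPINA9 (1.88), LPP (0.86), BCL6 (0.82), UNG (0.63), which repairs deaminated cytosine, and MME (0.48), which encodes CD10. Lower members included GCSAM, a signalling adaptor of germinal centre B cells, at 38 and 35.8 CPM in the POU2F2 knockdown, 67.6 CPM in the POU2AF1 knockdown and 29.5 CPM in the control (-0.87 ± 0.09, edgeR adjusted p = 7.5e-09). BACH2 (-0.74) was lower too. The list therefore had no single direction, and with the series block 3 were called higher and 4 lower.

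Of 29 B lineage transcription factors 6 were called higher and 9 lower, and with the series block none higher and 6 lower. The SUDHL4 fit called 13.8% of all genes higher and 12.4% lower, which also holds beside the plasma cell and immunoglobulin counts below. PAX5, the factor of B cell commitment, was at 190 and 154 CPM in the POU2F2 knockdown, 337 CPM in the POU2AF1 knockdown and 103 CPM in the control (-0.97 ± 0.11). ID2 (-1.35), EBF1 (-0.72) and FOXO1 (-0.53) were also lower, and MYB (0.83), BCL6 and MYBL2 (0.57) were higher. Among plasma cell genes 5 of 16 were higher, led by the BCMA gene TNFRSF17 (1.20), and 3 lower. Of 16 immunoglobulin constant and J chain genes 5 were lower and 1 higher, and the most abundant, IGHG4 (-0.23, edgeR adjusted p = 0.28) and IGKC (-0.19, edgeR adjusted p = 0.33), were not called. IGHG genes share sequence, so their split is uncertain. No B lineage factor was called in the fit of all libraries.

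In the cytokine, chemokine and innate lists more members were called lower than higher in the SUDHL4 fit, set against 12.4% lower and 13.8% higher over all genes. CD40 and NF-kB response genes had 13 of 25 lower and 1 higher, with TNF at 18.9 and 15.5 CPM in the POU2F2 knockdown, 64.6 CPM in the POU2AF1 knockdown and 2.94 CPM in the control (-1.91 ± 0.11, edgeR adjusted p = 1.2e-12). The 1 higher member was the NF-kB subunit gene REL (0.66). Cytokine receptors and ligands had 9 of 19 lower and 1 higher, led by LTB and IL10RA (-1.11). Chemokine, migration and adhesion genes had 12 of 29 lower, with S1PR2 (0.35), the receptor that confines germinal centre B cells, the 1 called higher. Of 18 Toll-like receptor genes 7 were lower and 1 higher, with TLR7 (-1.23), TLR4 (-1.04) and TLR10 (-0.88) among them. Immediate early genes had 7 of 20 lower, such as EGR2 (-2.02) and JUNB (-0.61), and 2 higher, MYC and FOSL2 (1.44). With the series block 3, 4, 5, 5 and 0 members of these 5 lists were called lower, in the order given, and 1 immediate early gene was called higher.

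Of 21 genes in the BCL2 family and apoptosis list 4 were called lower and 1 higher, near the share of all genes (26.2% in either direction). The series block called 2 lower and the fit of all libraries none. HRK and BMF encode death-promoting BH3-only proteins. HRK was at 2.89 and 3.33 CPM in the POU2F2 knockdown, 14.1 CPM in the POU2AF1 knockdown and 1.07 CPM in the control (-2.18 ± 0.20). BMF was at 66.1 and 65.8 CPM in the POU2F2 knockdown, 198 CPM in the POU2AF1 knockdown and 60.4 CPM in the control (-1.58 ± 0.09, edgeR adjusted p = 6e-16). BCL2 (-0.23, edgeR adjusted p = 0.11) and MCL1 (-0.12, 0.45), which encode survival proteins, were not called. In the p53 response list 3 of 20 were higher and 6 lower, with TP53INP1 (-1.48) lowest. Of 25 endoplasmic reticulum genes 2 were higher and 3 lower, and of 17 histone genes 1 was higher and 3 lower. These lists are set against 13.8% higher and 12.4% lower over all genes. The endoplasmic reticulum and histone counts were near the 26.2% called in either direction.

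**Figure D3:**
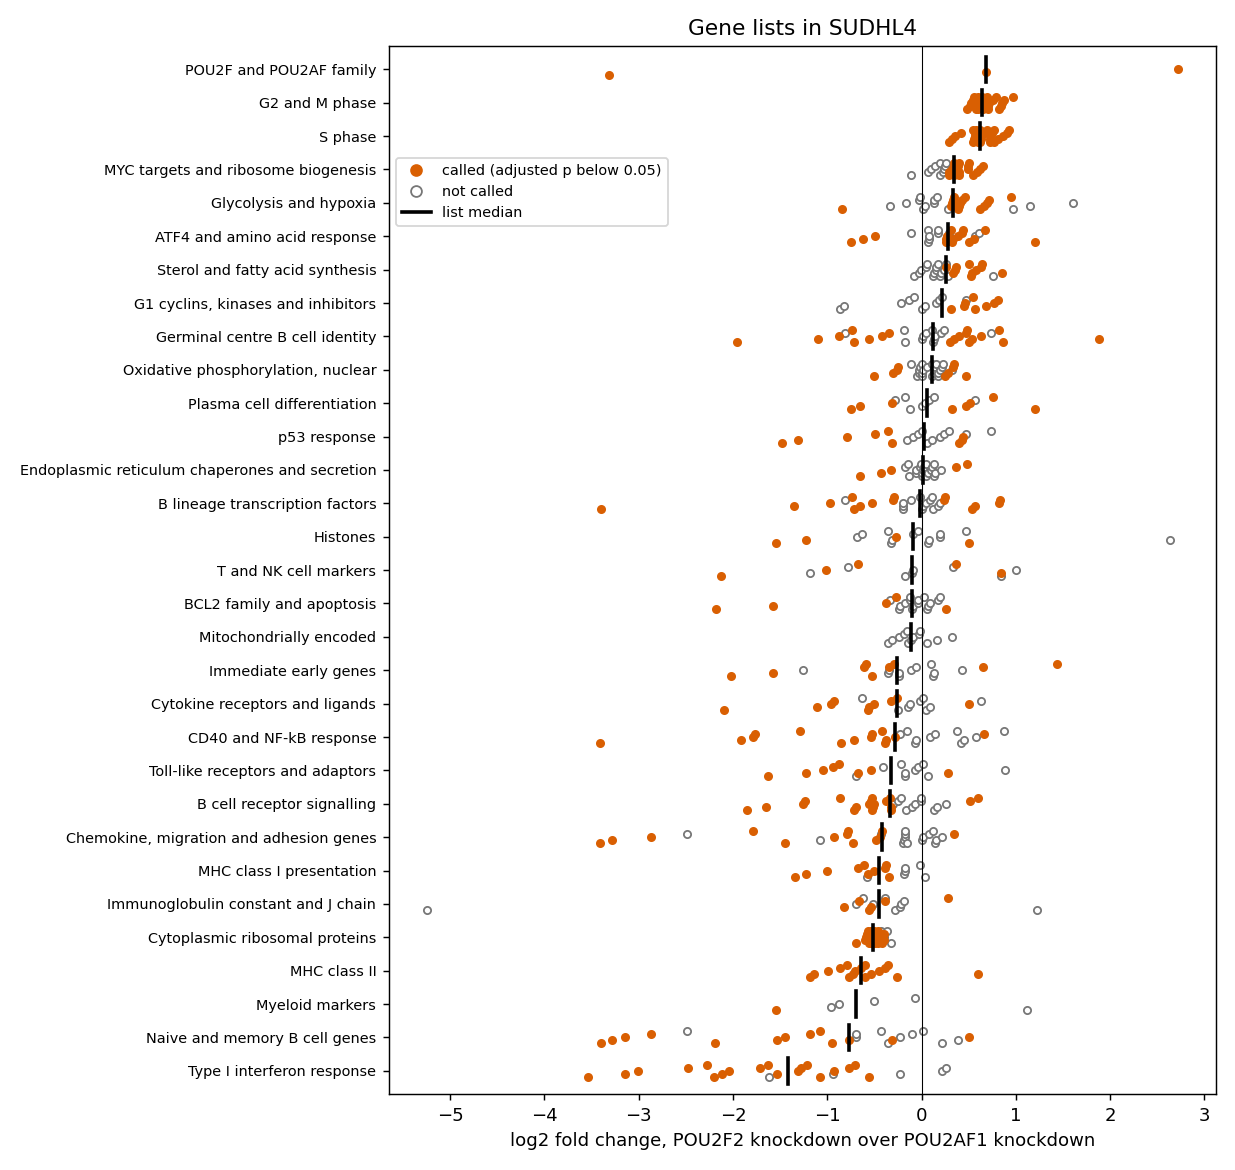
Fitted log2 fold change of each tested list member, POU2F2 knockdown over POU2AF1 knockdown, with filled points for called genes and a bar at the median of each list. The G2 and M phase and S phase lists lie wholly to the right of 0, the ribosomal proteins wholly to the left, and the germinal centre and B lineage lists on both sides.

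A small set of genes had the control nearer to the POU2AF1 knockdown, 85 of those called higher and 57 of those called lower. The genes given here were picked after their values were seen and are not a ranking. Besides POU2F2 itself the set included RGS8, a regulator of G protein signalling, at 14.1 and 12.7 CPM in the POU2F2 knockdown, 6.11 CPM in the POU2AF1 knockdown and 5.34 CPM in the control (1.13 ± 0.17, edgeR adjusted p = 2.9e-06). HMGCS1, an enzyme of sterol synthesis, was at 335 and 326 CPM in the POU2F2 knockdown, 221 CPM in the POU2AF1 knockdown and 241 CPM in the control (0.58 ± 0.10). In both the POU2F2 knockdown stood above the other 2 libraries. DERL3, a factor of protein disposal in the endoplasmic reticulum, stood below them at 10.8 and 13.1 CPM in the POU2F2 knockdown, 20.1 CPM in the POU2AF1 knockdown and 15.8 CPM in the control (-0.75 ± 0.13). RGS8 and HMGCS1 lost their call with the series block (edgeR adjusted p = 0.16 and 0.57).

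The same contrast was made in OCI-Ly7, the other germinal centre lymphoma line of the series, with 8 POU2F2 knockdown libraries, all of batch 2, and 6 POU2AF1 knockdown libraries of both batches, none shared with SUDHL4. OCI-Ly7 cells carried the same repressor construct and were grown in IMDM with 20% fetal bovine serum. In OCI-Ly7, 26 of 16001 genes were called (0.162%), 22 higher (0.137%) and 4 lower (0.025%), 212 with the series block (1.12%, or 607 genes without POU2AF1 knockdown replicate 1) and 4 within batch 2 alone. Of the 14893 genes tested in both lines 46.4% had the same sign, and this was 46.3% for the 2248 called higher in SUDHL4 and 43.7% for the 1932 called lower. The broad differences of SUDHL4 were thus not carried over in sign to OCI-Ly7 more than over all genes. POU2F2 itself differed less in OCI-Ly7 (-1.38 against -3.31). The biological coefficient of variation was larger there (0.297 against 0.0779). The signs were not counted again without OCI-Ly7 POU2AF1 knockdown replicate 1. The G2 and M phase list had a median of 0.64 in SUDHL4 and 0.07 in OCI-Ly7, the S phase list 0.62 and 0.03, and the ribosomal proteins -0.51 and -0.04. MHC class II had a median of -0.64 in SUDHL4 and 0.37 in OCI-Ly7.

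A short list of 18 genes was called in both lines. This is 0.405% of the SUDHL4 calls, against 0.162% of all genes called in OCI-Ly7. It is 75% of the 24 OCI-Ly7 calls that were tested in SUDHL4, against 26.2% of all genes called in SUDHL4. The targeted genes POU2F2 and POU2AF1 are among the 18, and the knockdowns themselves set their difference. In 17 of the 18 the direction was the same, against 46.4% of all genes tested in both lines. Next to POU2F2 (-1.38 in OCI-Ly7) and POU2AF1 (2.73), they included LOXL2 (1.96 in SUDHL4 and 1.37 in OCI-Ly7), GNB3 (1.78 and 2.08), WNT5A (1.96 and 1.57), DEPTOR (1.39 and 0.77), FCRL3 (0.69 and 1.48), IL4R (0.50 and 1.06) and SCAMP5 (-0.67 and -0.70). WNT5A is a secreted WNT ligand, and was at 1.84 and 2.15 CPM in the SUDHL4 POU2F2 knockdown, 0.511 CPM in the SUDHL4 POU2AF1 knockdown and 2.75 CPM in the control. The exception was the lysosomal membrane gene DRAM2 (-0.34 in SUDHL4 and 0.60 in OCI-Ly7).

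The difference of the contrast between the lines was tested as an interaction in the fit of all libraries, where 15 of 18918 genes were called (0.0793%), 1 higher (0.00529%) and 14 lower (0.074%) in SUDHL4 than in OCI-Ly7. Without OCI-Ly7 POU2AF1 knockdown replicate 1 it called 24, and with the series block 856 (4.52%), 401 higher (2.12%) and 455 lower (2.41%), or 2296 with both changes. Among the called were ISG20, an interferon-stimulated exonuclease (log2 difference -1.52, edgeR adjusted p = 0.013), GPR18, a receptor of lymphocytes (-1.75, 0.013), and NCF1, a subunit of the phagocyte oxidase (-1.46, 0.013), and these 3 were picked after their values were seen. With the series block 12 of 17 MHC class II genes were called lower and 1 higher in SUDHL4 than in OCI-Ly7. In that fit 17 of 30 S phase and 11 of 30 G2 and M phase genes were called higher in SUDHL4, and no ribosomal protein gene was called in either direction.

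**Figure D4:**
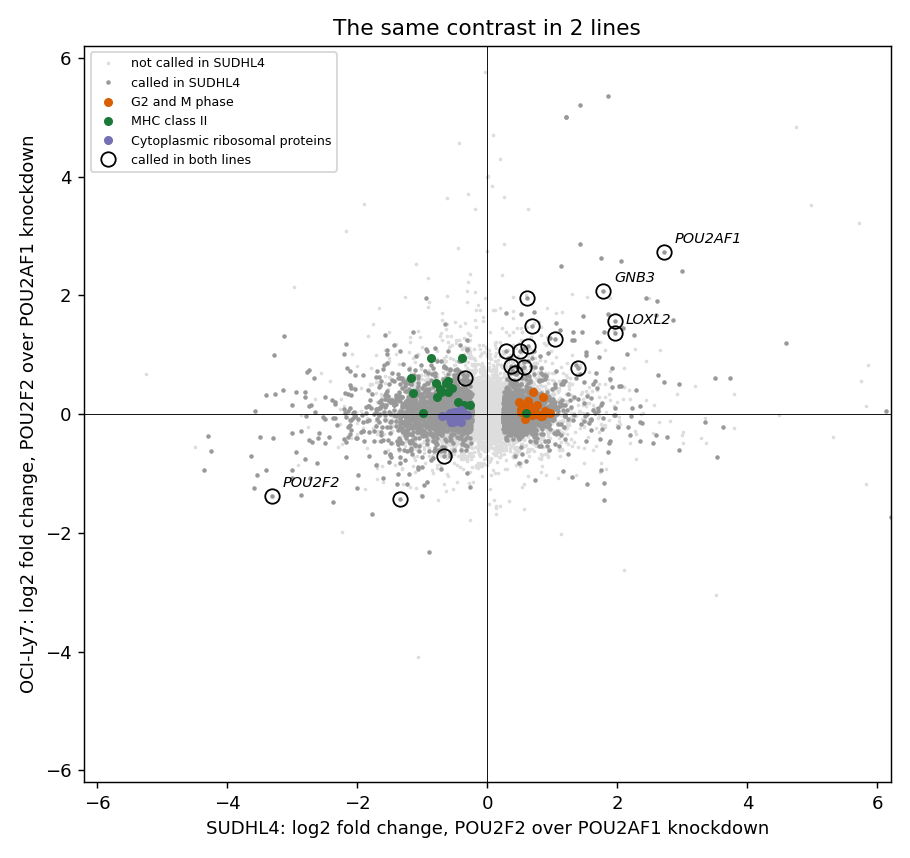
Fitted log2 fold change, POU2F2 knockdown over POU2AF1 knockdown, in SUDHL4 (horizontal) and OCI-Ly7 (vertical) for 14858 genes tested in both lines, with 35 genes outside the axes. The coloured lists are displaced from 0 along the SUDHL4 axis, MHC class II members lie mostly at negative values in SUDHL4 and positive ones in OCI-Ly7, and open circles mark the 18 genes called in both lines.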

How the data were processed

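Trizol-extracted RNA of SUDHL4 and OCI-Ly7 cells was sequenced as stranded paired-end mRNA libraries, per the labels' protocols. Per the submitters' processing notes, the authors used fastp and Salmon 1.5.1 on GRCh38.p13; no fastp version is stated there. The deposited estimated counts (expected counts) of 227912 transcripts per file were summed per gene with GENCODE 29 for 205964 matched transcripts, which held 98.36% to 98.89% of reads, and rounded. Files held 24959865 to 53155548 estimated reads, so sampling error is small next to the spread between libraries for all but low genes.

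Files of a group whose difference was below 1.5 times counting noise (median chi-square) were summed: 3 pairs at 1.122 to 1.151, against 2.39 to 70.35 for 53 other pairs, which left 22 libraries. An OCI-Ly7 control file equal to the sum of its fellows was dropped.

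Counts were tested with edgeR 4.0.16 (TMM, robust quasi-likelihood, filterByExpr at minimum count 10, Benjamini-Hochberg adjustment, threshold 0.05) on the 4 SUDHL4 libraries, which leaves 1 residual degree of freedom from the POU2F2 knockdown pair (biological coefficient of variation 0.0779). The lone POU2AF1 knockdown library is assumed to vary like them. The spread of each gene was drawn toward a trend over all genes, with a median of 33 prior degrees of freedom. The filter on low counts could be passed through 1 library alone. The fit of all libraries with batch as a term had a coefficient of 0.298 and the series block 0.147. OCI-Ly7 was fitted with its own libraries and batch, and its POU2F2 knockdown libraries are all of batch 2. DESeq2 1.42.0 was an alternative. The code was tested on simulated data.

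Named genes were the targets, the 12 with the largest log2 fold change each way with at least 5 CPM over the contrast and, first, a call in both the SUDHL4 fit and that of all libraries, and up to 4 called members of each list by size. For the 12 each way, both POU2F2 knockdown libraries also had to lie on the same side of the POU2AF1 knockdown library. Others given are described by their list. The members and lists were chosen with earlier results of these data known. Lists are given by counts and medians, with no set test. Promoter sequences are those of RefSeq (GRCh38.p14), matched for 10996 of 16973 tested genes. Gene symbols came from the gene table for 58201 of 58592 genes. Some genes that these rules pick are not reported here.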

Additional observations from a re-analysis of the deposited data

Results flagged for a closer look

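For 4 of the named genes given here the difference between the knockdowns was not the same in SUDHL4 as in OCI-Ly7, by the interaction test of edgeR over all libraries. The log2 difference, SUDHL4 minus OCI-Ly7, was -2.57 for LRRK2 (adjusted p = 0.013), with log2 fold changes of -2.19 in SUDHL4 and 0.36 in OCI-Ly7. For CLEC17A it was -1.97 (edgeR adjusted p = 0.031), with -1.82 in SUDHL4 and 0.14 in OCI-Ly7. For CHST11 it was -1.47 (edgeR adjusted p = 0.017), with -1.75 in SUDHL4 and -0.29 in OCI-Ly7. DTL was the 1 gene of these with a positive difference, 1.11 (edgeR adjusted p = 0.018), with 0.95 in SUDHL4 and -0.18 in OCI-Ly7. In all 4 both POU2F2 knockdown libraries of SUDHL4 lay on the same side of the POU2AF1 knockdown library. The rule for naming genes required this, so it is no separate support.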

How the results depend on the processing

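No paired analysis was possible because the POU2AF1 knockdown files are 1 library. Calls in SUDHL4 rest on 2 replicate libraries, and no named gene changed sign under any alternative run. All runs reuse the same SUDHL4 libraries, and called genes had both POU2F2 knockdown libraries on 1 side of the POU2AF1 knockdown. The kept sign is therefore no separate support. RLE scaling, no filter, the contrast libraries alone and 1 POU2AF1 knockdown file kept the counts of genes called within 1.5 times. DESeq2 called 2224 genes (1215 higher, 1009 lower) and a test against a 1.5-fold change 471 (127 and 344). The fit of all libraries called 37 (7 and 30), and leaving out 1 POU2F2 knockdown replicate there gave 5 to 8 (1 to 2 higher, 4 to 6 lower). The series block, added after seeing the data, called 1202 (566 and 636), and 493 to 551 without 1 replicate (226 to 269 higher, 267 to 282 lower). Without OCI-Ly7 POU2AF1 knockdown replicate 1, also added, the fit of all libraries called 48 (9 and 39) and the series block 2648 (1258 and 1390). In OCI-Ly7 batch 2 alone called 4 genes, the series block 212 and, without that replicate, 607. The interaction called 856 with the series block, 24 without that replicate and 2296 with both. Members called, under the fit of all libraries, the 1.5-fold test and the series block: B cell receptor 3, 4 and 11, MHC class II 1, 4 and 8, interferon 1, 12 and 10 (DESeq2 11), S phase 0, 3 and 19, G2 and M phase 0, 3 and 26, ribosomal proteins 0, 0 and 7. Without 1 POU2F2 knockdown replicate, no member of these 6 lists was called in the fit of all libraries (0), and the series block called 5 of the B cell receptor list, 3 of MHC class II, 3 to 4 interferon, 11 to 18 S phase, 13 to 15 G2 and M phase and 0 to 1 ribosomal protein genes. Without OCI-Ly7 POU2AF1 knockdown replicate 1, the fit of all libraries called 3 B cell receptor, 1 MHC class II, 3 interferon, 0 S phase, 0 G2 and M phase and 0 ribosomal protein genes, and the series block 15, 10, 16, 26, 28 and 35 of these lists in that order. POU2F2 had -3.17 (adjusted p = 0.073) in the fit of all libraries without POU2F2 knockdown replicate 1. Of 128 named genes, 23 kept their call in the fit of all libraries, 84 with the series block and 66 in the 1.5-fold test. The coefficient of variation is 0.298 in the fit of all libraries, against 0.0779 in SUDHL4. The cause of the shifts was not tested. Depth limits only genes of a few CPM.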
